A study of Mus musculus with 2 samples.

Results

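The genes described here are 34 mouse genes that make, take up, move, store or export cholesterol. They were taken by name from a list of sterol genes, and all 34 were found among the 38087 Ensembl genes of the deposited tables. RNA came from parietal cells, which secrete the acid of the stomach, sorted from C57BL/6 mice that were either fed a high fat diet (HFD) or kept as controls. The HFD mice and the control mice gave 1 library each, made from total RNA after removal of ribosomal RNA, with an estimated 25.5 M and 9.84 M reads and 13431 and 15045 genes listed above 0. The sources used here do not give the composition of the diets, the time on them, the age or number of mice, or the sorting markers. With 1 library per diet there was no replicate error and no test of diet was possible, so every difference below is between 2 libraries. Where a pair of levels is written as one against the other, the HFD value comes first. Markers of the labelled cell type were abundant, with Atp4a, a subunit of the acid pump, at 4997 against 4324 RPKM, but the chief cell gene Pgc stood at 45624 against 102292 RPKM, so RNA typical of other stomach cells was present in both libraries.

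Cells obtain cholesterol by building it from acetyl-CoA through mevalonate, squalene and lanosterol, or by taking up lipoproteins. When sterol in the endoplasmic reticulum is low, the escort protein SCAP carries the transcription factor SREBP2 to the Golgi, where it is cut, and the released part switches on the genes of synthesis and uptake. When sterol is high, the INSIG proteins hold SCAP back, and oxysterols activate the LXR receptors, which switch on genes of cholesterol export. Parietal cells hold very large amounts of membrane, which moves to and from the cell surface as acid secretion starts and stops.

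Most sterol genes were lower in the HFD library. Of 33 listed above 0 in at least 1 library, 25 were lower and 8 higher, against 56.0% of 11976 protein-coding genes lower by any amount. Their median difference was -0.41 on the log2(RPKM + 1) scale, beside -0.11 over all those coding genes. RPKM is reads per kilobase of gene and per M reads of the library, and genes at or below 1 RPKM are listed as 0. Over 2-fold lower were 5 of the 33 (15.2%), a share below the 20.1% of coding genes, and none was over 2-fold higher, against 8.02% of coding genes. As deposited, most members were thus lower by less than 2-fold, and of the 5 past 2-fold, 3 were listed at 0 in the HFD library. With a total leaving out the 20 most abundant genes as the scale, 15 of the 33 were over 2-fold lower, against 32.1% of coding genes. The lowest ratio was that of Mvk, the mevalonate kinase gene, whose level was 5.22-fold lower in the HFD library (3.14 against 16.4 RPKM, counting interval 4.42 to 6.18). The clearest differences the other way were in Insig2 (11.1 against 5.54 RPKM) and Npc1 (6.44 against 3.25 RPKM). In bulk samples such as these, fewer cells of a type and less RNA per cell cannot be told apart.

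How far the genes were lower depends on how the HFD values are scaled. As deposited the split was 25 lower and 8 higher. It was 21 and 12 when both libraries were set to the same total of coding genes, a shift of 0.29 on the log2 scale. Of coding genes 43.1% were lower on that scale. The split was 30 and 3 when both were set to a total leaving out the 20 most abundant genes, a shift of -0.60. On this last scale 81.0% of coding genes were lower. There 15 sterol genes and 32.1% of coding genes were over 2-fold lower. The difference between the sterol median and the coding median was -0.29 as deposited and -0.28 to -0.35 over the 5 scalings, which is nearly fixed by construction because a scaling multiplies all HFD values by 1 factor.

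**Figure D1:**
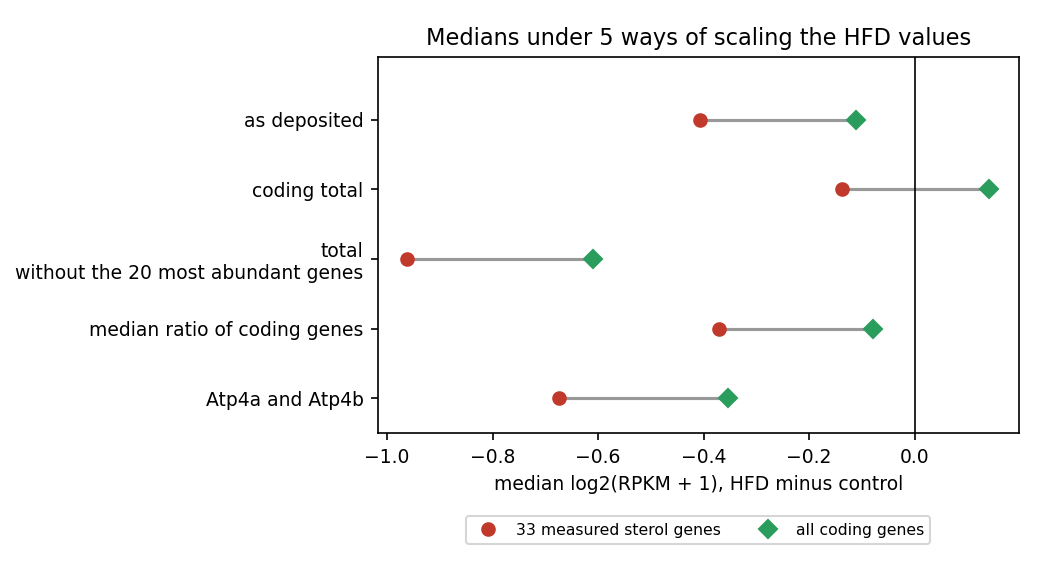
Median difference between the HFD and the control library in log2(RPKM + 1), for the 33 measured sterol genes (circles) and for all coding genes (diamonds), under the deposited scale and 4 rescalings of the HFD values. Both medians move together by construction, and the sterol median ranges from -0.96 to -0.14.

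The promoters of the members with the lowest ratios come first below. Promoters are shown since SREBP2 acts on sterol genes close to their start, together with the factors NF-Y and Sp1. Each line holds the 250 bases before the RefSeq start of the gene (GRCm38.p6), written 5′ to 3′ on the strand of the gene, for the 3 genes with a ratio under 0.5 (Mvk, Hsd17b7 and Srebf2), for the higher gene Msmo1 and for Hmgcs1, the latter pair chosen after their values and motifs were seen. Capitals mark the NF-Y motif CCAAT and the sterol response element TCACNCCAC on either strand. Mvk lies at chr5:114444019-114444268 (plus strand), Hsd17b7 at chr1:169969206-169969455 (minus), Srebf2 at chr15:82147019-82147268 (plus), Msmo1 at chr8:64733579-64733828 (minus) and Hmgcs1 at chr13:119690101-119690350 (plus).
Mvk: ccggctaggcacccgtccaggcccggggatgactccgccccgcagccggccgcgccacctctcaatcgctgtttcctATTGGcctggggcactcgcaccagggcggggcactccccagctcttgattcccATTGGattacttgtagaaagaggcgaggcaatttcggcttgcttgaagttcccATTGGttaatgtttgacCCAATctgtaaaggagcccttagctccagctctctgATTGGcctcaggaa
Hsd17b7: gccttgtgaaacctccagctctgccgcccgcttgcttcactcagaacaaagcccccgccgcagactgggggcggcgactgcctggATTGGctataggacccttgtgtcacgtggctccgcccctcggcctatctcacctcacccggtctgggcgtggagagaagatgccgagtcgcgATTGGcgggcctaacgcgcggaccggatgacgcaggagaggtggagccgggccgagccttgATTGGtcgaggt
Srebf2: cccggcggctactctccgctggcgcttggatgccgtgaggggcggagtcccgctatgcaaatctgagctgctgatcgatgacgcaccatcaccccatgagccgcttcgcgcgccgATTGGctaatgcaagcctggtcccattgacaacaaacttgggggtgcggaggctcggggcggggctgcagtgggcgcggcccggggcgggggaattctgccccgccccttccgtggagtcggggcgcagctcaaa
Msmo1: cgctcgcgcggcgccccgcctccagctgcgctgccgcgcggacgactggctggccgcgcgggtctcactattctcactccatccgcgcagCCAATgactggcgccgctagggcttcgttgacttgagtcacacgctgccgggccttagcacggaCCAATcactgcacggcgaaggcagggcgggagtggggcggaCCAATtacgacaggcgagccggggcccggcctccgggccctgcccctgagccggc
Hmgcs1: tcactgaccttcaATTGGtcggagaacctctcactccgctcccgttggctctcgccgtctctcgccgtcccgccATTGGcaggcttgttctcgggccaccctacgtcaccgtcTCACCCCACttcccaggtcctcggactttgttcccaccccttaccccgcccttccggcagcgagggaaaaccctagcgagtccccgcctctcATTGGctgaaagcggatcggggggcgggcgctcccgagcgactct

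Of the 34 members, 27 had a promoter in the RefSeq table; Abcg1, Fdft1, Fdps, Npc1, Scarb1, Sqle and Stard4 did not. CCAAT was found on either strand in 22 of the 27 (81.5%), beside 40.4% of 9390 coding genes listed in these libraries and 33.8% of all 32851 promoters of this length. The Mvk window held 5 copies of CCAAT, Hsd17b7 and Msmo1 held 3 each, and Srebf2 held 1. The Sp1 motif GGGCGG was found in 23 of 27 (85.2%), beside 64.4% of coding genes and 32.7% of all promoters. TCACNCCAC was found in Hmgcs1 and Stard3 only, 2 of 27 (7.41%), beside 1.21% of coding genes and 1.05% of all promoters. In Hmgcs1 it begins 137 bases before the start and 34 bases from the nearest CCAAT. The shares of members and of coding genes count a gene with a match in any of its windows. Those of all promoters count each window singly. Counted singly, 22 of 35 member windows held CCAAT, 25 held GGGCGG and 2 held TCACNCCAC. None of the 3 motifs contains another. A match describes the letters of a window, and a missing match says only that these letters are not in it. Genes with lower RNA and genes with higher RNA in the HFD library both carried CCAAT. The higher gene shown, Msmo1, was not the member with the highest ratio. That was Insig2, whose windows, not shown, held 3, 0 and 0 copies of CCAAT.

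Among the regulators, the gene of the transcription factor itself was lower and 1 of the INSIG genes was higher. Srebf2 (ENSMUSG00000022463, chromosome 15, 82147181 to 82205379, mm10) stood at 35.5 RPKM on the high fat diet and at 74.2 RPKM in controls, a ratio of 0.478. Its approximate 95% counting interval was 0.461 to 0.496; such intervals come from reads estimated from the values and cover counting error only. Srebf2 was among the more abundant genes of both libraries, above 90.9% and 96.8% of the listed coding genes. The microRNA gene Mir33 in its intron, which spans 69 bases, was listed at 0 in both libraries. Whether these libraries capture so short an RNA was not tested, so the 0 does not show that it is absent. Scap, the escort, stood at 18.4 against 21.9 RPKM, a ratio of 0.838 (0.790 to 0.890). Scap was above its control value with the total of coding genes as the scale (0.0374 on the log2 scale).

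The INSIG genes encode a pair of related retention proteins, of which Insig1 is itself a target of SREBP2. Insig1 stood at 25.5 against 34.5 RPKM, a ratio of 0.739 (0.686 to 0.797). Insig2 (ENSMUSG00000003721, chromosome 1, 121304353 to 121332589) went the other way, at 11.1 against 5.54 RPKM, a ratio of 1.998 (1.71 to 2.35). Insig2 was thus the less abundant of the pair in both libraries, but the quotient of Insig2 to Insig1 was 0.434 with HFD and 0.160 in controls. This quotient is taken within a library, so no scaling changes it, and it differed 2.70-fold. Against Srebf2, Insig2 had a quotient of 0.312 with HFD and 0.0748 in controls, and Scap one of 0.518 and 0.296. Mylip, a ubiquitin ligase gene switched on by LXR that marks lipoprotein receptors for breakdown, was listed at 0 against 1.51 RPKM, close to the floor.

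**Figure D2:**
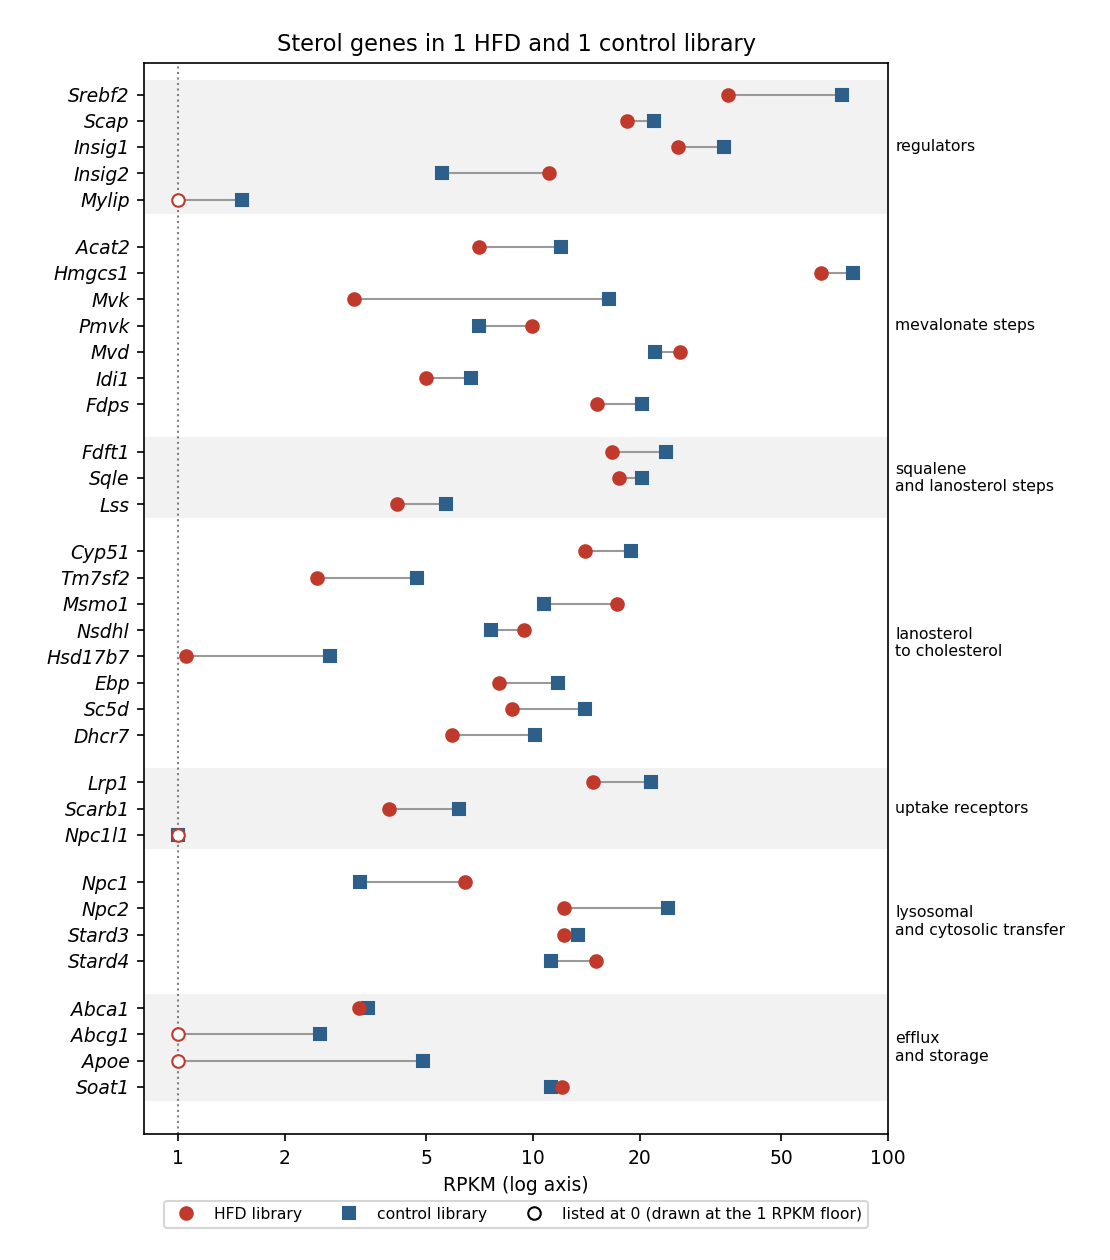
RPKM of each sterol gene in the HFD library (red circles) and the control library (blue squares) on a log axis, grouped by role; open symbols are genes listed at 0, drawn at the floor of 1 RPKM. Mvk shows the widest gap (3.14 against 16.4 RPKM), and Insig2, Pmvk, Mvd, Msmo1, Nsdhl, Npc1, Stard4 and Soat1 are the 8 genes with the HFD symbol on the right.

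The 18 synthesis enzymes were all listed in both libraries. Their summed level was 236 against 294 RPKM, and their median difference was -0.40 on the log2(RPKM + 1) scale. Of the 18, 14 (77.8%) were lower and 4 higher, beside 56.0% of coding genes lower by any amount. None of the 18 had a counting interval that held a ratio of 1. Such intervals were common: of 9997 coding genes listed in both libraries the interval lay wholly below 1 for 42.1% and wholly above 1 for 37.8%. Over all members listed in both the counts were 20 of 30 (66.7%) below and 8 of 30 (26.7%) above. By stage, the median difference was -0.36 for the 7 genes up to farnesyl diphosphate (131 against 164 RPKM summed), -0.38 for the 3 genes up to lanosterol and -0.56 for the 8 genes from there to cholesterol (66.9 against 80.5 RPKM).

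Hmgcs1, which joins acetyl-CoA to acetoacetyl-CoA and begins the committed part of the route, was the most abundant member in both libraries. Its level was 64.6 against 79.5 RPKM, a ratio of 0.813 (0.781 to 0.846). Acat2, the cytosolic thiolase that supplies acetoacetyl-CoA, stood at 7.05 against 12.02 RPKM (ratio 0.586, interval 0.505 to 0.680). Its neighbour and close copy Acat3 stood at 2.22 against 4.58 RPKM, and how reads shared by such copies were counted is unknown here, so both values are uncertain.

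The 3 kinase and decarboxylase steps that turn mevalonate into isopentenyl diphosphate differed in direction. Mvk (ENSMUSG00000041939, chromosome 5, 114444269 to 114460591), the first of them, stood at 3.14 against 16.4 RPKM, a ratio of 0.192 (0.162 to 0.226) from about 214 and 431 estimated reads. Only 1.17% of coding genes listed in both libraries had a lower ratio. Pmvk, the next kinase, stood at 9.93 against 7.04 RPKM, a ratio of 1.41 (1.15 to 1.74). Mvd, the decarboxylase, stood at 26.0 against 22.1 RPKM, a ratio of 1.18 (1.05 to 1.32). The quotient of Mvk to Pmvk was 0.316 with HFD and 2.33 in controls. Mvk was thus the more abundant of the kinases in the control library and the less abundant in the HFD library, which no scaling alters. Pmvk and Mvd were below their control values with a total leaving out the 20 most abundant genes as the scale (-0.10 and -0.35 on the log2 scale).

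Idi1, the isomerase of isopentenyl diphosphate, stood at 5.002 against 6.68 RPKM (ratio 0.749, interval 0.638 to 0.883). Fdps, which builds farnesyl diphosphate, the branch point to sterols and to lipid anchors of proteins, stood at 15.2 against 20.3 RPKM (ratio 0.748, interval 0.688 to 0.815). These neighbouring steps thus had nearly the same ratio. Fdps overlaps another gene on its strand, Gm43738, and Mvd lies within the span of Gm20388 on the other strand (33.1 against 36.8 RPKM), so their reads are less certain.

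In the squalene and lanosterol steps all 3 genes were lower as deposited, with ratios from 0.702 to 0.859, and the intervals of Fdft1 and Sqle did not overlap. Fdft1, squalene synthase, the first enzyme given over to sterols, stood at 16.7 against 23.8 RPKM (ratio 0.702, interval 0.649 to 0.759). Sqle, the squalene epoxidase that is a control point of the route, stood at 17.4 against 20.3 RPKM, a ratio of 0.859 (0.8002 to 0.923). Sqle was above its control value with the total of coding genes as the scale (0.0715 on the log2 scale). Lss, which closes the ring system, stood at 4.13 against 5.68 RPKM (ratio 0.728, interval 0.660 to 0.806). Where strand was not used in counting, reads of Fdft1 may include some of Ctsb, which overlaps it by 774 bases (129 against 112 RPKM), and reads of Lss some of the antisense gene 4930483K19Rik (0 against 2.21 RPKM).

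From lanosterol to cholesterol 6 of 8 genes were lower, beside 56.0% of coding genes. Cyp51, the lanosterol demethylase, stood at 14.0 against 18.9 RPKM (ratio 0.741, interval 0.681 to 0.808), and Tm7sf2, the sterol reductase that follows it, at 2.46 against 4.70 RPKM (ratio 0.523, interval 0.434 to 0.629). Lbr, which encodes a second enzyme for the same reduction and anchors chromatin to the nuclear envelope, is no member but was lower too, at 10.05 against 29.96 RPKM (ratio 0.335). The RNA of both reductases was thus lower in the HFD library. The Tm7sf2 span overlaps that of Vps51 on the same strand (11.0 against 10.5 RPKM), so its reads are less certain.

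The 3 enzymes that together strip the methyl groups from the ring differed in direction. Msmo1, the methyl oxidase (chromosome 8, 64718139 to 64733792), stood at 17.3 against 10.8 RPKM, for a ratio of 1.61 (1.47 to 1.75). Nsdhl, the decarboxylating dehydrogenase, stood at 9.42 against 7.60 RPKM, a ratio of 1.24 (1.06 to 1.45). Nsdhl was below its control value with a total leaving out the 20 most abundant genes as the scale (-0.26 on the log2 scale). Hsd17b7, the ketoreductase (chromosome 1, 169949535 to 169969241), stood at 1.05 against 2.67 RPKM, a ratio of 0.394 (0.309 to 0.504). It was the least abundant listed member of the HFD library, just above the floor. Relative to Cyp51, Msmo1 had a quotient of 1.23 with HFD and 0.569 in controls.

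The last 3 genes of the route were lower to a like degree. Ebp, the sterol isomerase, stood at 8.03 against 11.7 RPKM (ratio 0.684, interval 0.587 to 0.797). Sc5d, the desaturase, stood at 8.74 against 14.0 RPKM (ratio 0.625, interval 0.567 to 0.689), and Dhcr7, the reductase that acts at the end of the route, at 5.92 against 10.1 RPKM (ratio 0.584, interval 0.525 to 0.650). Their counting intervals overlap.

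**Figure D3:**
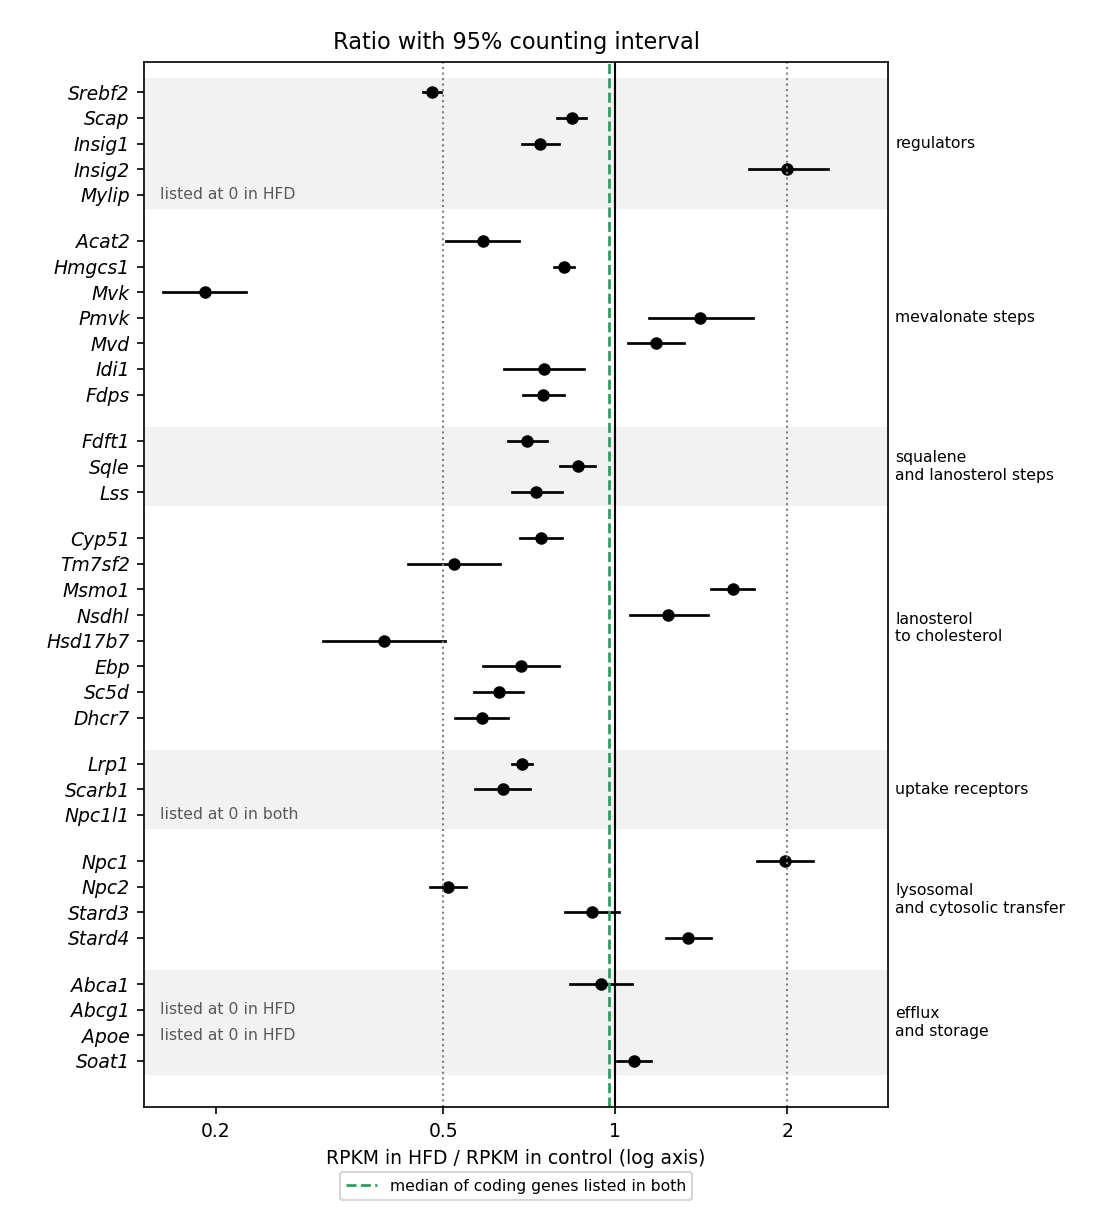
Ratio of RPKM in the HFD library to RPKM in the control library for the 30 sterol genes listed in both (points), with approximate 95% counting intervals (bars), on a log axis; dotted lines mark 2-fold and the dashed line is the median of coding genes, 0.973. Of the 30 intervals, 20 lie wholly left of 1, 8 wholly right of 1, and those of Stard3 and Abca1 hold 1.

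Among the uptake receptors, Lrp1, a large endocytic receptor for apolipoprotein E and other ligands, stood at 14.8 against 21.5 RPKM, a ratio of 0.688 (0.661 to 0.716). Scarb1, the receptor for high density lipoprotein, stood at 3.94 against 6.19 RPKM, a ratio of 0.636 (0.569 to 0.710). Npc1l1, the transporter through which enterocytes absorb cholesterol, was listed at 0 in both libraries, at or below 1 RPKM. Both measured receptors were thus lower, beside a median ratio of 0.735 over the synthesis enzymes.

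Cholesterol freed in lysosomes is handed from the soluble protein NPC2 to the membrane protein NPC1, and the genes of these partners went in opposite directions. Npc1 (ENSMUSG00000024413, chromosome 18, 12189692 to 12236400) stood at 6.44 against 3.25 RPKM, a ratio of 1.98 (1.77 to 2.22). Npc2 (chromosome 12, 84754562 to 84773152) stood at 12.2 against 23.998 RPKM, a ratio of 0.510 (0.474 to 0.548). Within a library, the quotient of Npc1 to Npc2 was 0.526 for HFD and 0.135 for control, a 3.89-fold difference that scaling leaves as it is. The end of Npc1 overlaps 967 bases of Rmc1 on the other strand, a gene with 9.45 against 4.28 RPKM, and reads of the pair may be mixed where strand was not used in counting.

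Stard3 and Stard4 encode sterol transfer proteins of late endosomes and of the cytosol. Stard3 stood at 12.2 against 13.4 RPKM, with an interval that holds 1 (0.817 to 1.02). Stard4, a target of SREBP2, stood at 15.025 against 11.2 RPKM, a ratio of 1.34 (1.22 to 1.47). It was below its control value with a total leaving out the 20 most abundant genes as the scale (-0.17 on the log2 scale).

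In efflux and storage the pair listed in both libraries were nearly level and the other two were listed in the control library alone. Abca1, which loads cholesterol onto lipid-poor apolipoprotein A-I, stood at 3.24 against 3.43 RPKM (ratio 0.943, interval 0.832 to 1.07). Soat1, which esterifies cholesterol for storage in droplets, stood at 12.1 against 11.2 RPKM (ratio 1.08, interval 1.005 to 1.16). Soat1 was below its control value with a total leaving out the 20 most abundant genes (-0.45 on the log2 scale) and with Atp4a and Atp4b (-0.16) as the scale. Abcg1, the transporter to high density lipoprotein, was listed at 0 against 2.51 RPKM, and Apoe, the gene of apolipoprotein E, at 0 against 4.89 RPKM. A gene listed at 0 passes 2-fold on the log2(RPKM + 1) scale by construction: of the 5 members over 2-fold lower, Mylip, Abcg1 and Apoe were such genes, and Srebf2 and Mvk were the rest. Of all coding genes listed in either library 12.4% were at 0 in the HFD library alone, beside these 3 of 33.

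The other genes of the pathway, 90 measured genes from 7 lists, had a median difference of 0.04. Of these, 41 were lower and 49 higher, beside 56.0% of coding genes lower. Those closest to SREBP processing were split, 7 lower and 6 higher of 13. Srebf1, the related factor that drives fatty acid synthesis, stood at 14.7 against 25.1 RPKM (ratio 0.584). Pgrmc1, a partner of sterol enzymes, stood at 68.0 against 51.8 RPKM (ratio 1.31). Vcp, the ATPase that pulls proteins from the endoplasmic reticulum, stood at 135 against 30.4 RPKM, a ratio of 4.44 (4.21 to 4.69), the largest ratio of these lists.

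Electron donors and accessory enzymes were lower in 4 of 6 cases, beside 56.0% of coding genes. Por, the reductase that feeds electrons to Cyp51 and Sqle, stood at 15.5 against 37.0 RPKM, a ratio of 0.420 (0.391 to 0.451). Cyb5b stood at 58.1 against 52.4 RPKM, and Tmem97, a sterol-responsive membrane protein gene, at 45.7 against 31.5 RPKM (ratio 1.45). The isoprenoid branches were lower in 9 of 16 (56.25%), which is near the coding share. Dolk, dolichol kinase, had the lowest ratio, at 4.04 against 11.6 RPKM (ratio 0.348). Pggt1b, a prenyl transferase subunit, had the highest, at 12.8 against 6.20 RPKM (ratio 2.07). Fnta, the alpha subunit shared by prenyl transferases, stood at 27.5 against 19.2 RPKM, while Rabggtb and Dolpp1 were within 1.13-fold of equal.

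Of 8 measured genes of oxysterols and LXR, 7 were higher and 1 lower, with a median of 0.33, beside 5271 of 11976 coding genes higher. Of the 7, 1 was listed at 0 in the control library, and the control value of Cyp27a1 was just above the floor, at about 21.4 estimated reads. Nr1h2, the LXR beta gene, stood at 21.1 against 18.4 RPKM (ratio 1.15, interval 1.04 to 1.26), Rxrb at 18.01 against 14.2 RPKM and Cyp27a1, which makes an oxysterol, at 1.82 against 1.00 RPKM (ratio 1.81, interval 1.15 to 3.13). Rxra, a shared partner of nuclear receptors, was the lower one, at 14.2 against 25.2 RPKM. The median of this list was -0.22 with a total leaving out the 20 most abundant genes as the scale. Genes of sterol transfer between membranes were higher in 15 of 20 (median 0.09), though 7 of the 20 had a counting interval that held 1. The median of these transfer genes was -0.39 with that same scale and -0.14 with Atp4a and Atp4b as the scale. Higher ones included Gramd1c at 6.99 against 2.76 RPKM (ratio 2.53) and Osbp at 49.6 against 41.0 RPKM; Scp2 had a ratio of 1.29, Vapa was level at 58.1 against 57.8 RPKM, and Osbpl2 was lowest at 14.6 against 23.4 RPKM.

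Lipoprotein receptors other than the members were split, 6 higher and 6 lower. Cd36, a scavenger receptor for fatty acids and modified lipoproteins, stood at 58.2 against 24.6 RPKM (ratio 2.37), Sort1 at 51.1 against 35.7 RPKM, Lrpap1 at 39.4 against 40.8 RPKM and Lrp10 at 17.6 against 34.2 RPKM. Of the fatty acid targets of SREBP1, 9 of 15 (60%) were lower, near the 56.0% of coding genes. Their median was -0.41 over those measured, yet the 12 listed in both had a median ratio of 0.999. Fasn, fatty acid synthase, was level at 55.2 against 55.1 RPKM, Acly stood at 38.4 against 55.1 RPKM, Mid1ip1 at 54.5 against 72.5 RPKM and Me1 at 24.6 against 12.4 RPKM. Fads2, a desaturase of polyunsaturated fats, was lowest at 1.56 against 9.26 RPKM, a ratio of 0.168 (0.136 to 0.208).

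**Figure D4:**
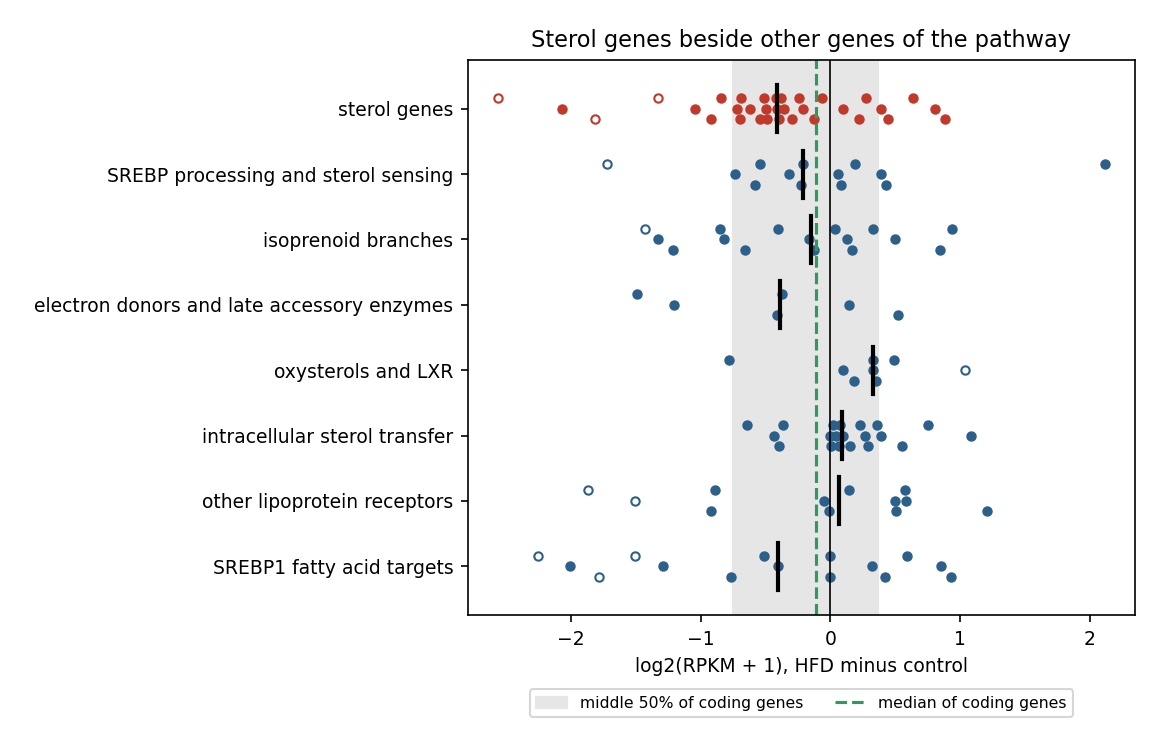
Difference between the libraries in log2(RPKM + 1) for each measured sterol gene (red) and each measured gene of 7 other pathway lists (blue); open circles are listed at 0 in 1 library, black bars are list medians, the grey band is the middle 50% of coding genes and the dashed line their median, -0.11. The sterol genes lie mostly left of 0 (median -0.41), the oxysterol and LXR list mostly right of it (median 0.33).

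Markers of other cell types differed between the libraries along with the sterol genes. Beside the counts below, 56.0% of all coding genes were lower in the HFD library. Parietal markers were higher in 12 of 14 (13267 against 10362 RPKM summed), led by Atp4b at 5639 against 4375 RPKM and Atp4a at 4997 against 4324 RPKM. Pit cell markers, led by Gkn1 and Gkn2, were higher in 4 of 6 (36084 against 14598). The difference in that sum lay mostly in Gkn1 (ratio 4.33) and Gkn2 (ratio 2.38). Muc5ac had a ratio of 1.31, Psca (1.02) and Tff1 (0.986) were nearly level, and Gkn3 was lower (0.346). Chief cell markers, led by Pgc and Chia1, were lower in 5 of 6 (48586 against 106850), and neck cell markers, led by Tff2 and Muc6, in 3 of 3 measured (7503 against 8514), with Cftr at 0 in both. Lower too were endocrine markers such as Ghrl and Chga in 7 of 8 (1213 against 8302), pancreatic acinar markers such as Clps and Cela1 in 11 of 11 (1880 against 13660), with 8 at 0 in the HFD library, and proliferation genes such as Mcm6 and Plk1 in 10 of 10 (97.7 against 234).

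Fibroblast and smooth muscle markers, led by Acta2 and Col3a1, were lower in 11 of 11 (69.4 against 312 RPKM summed), and endothelial markers, led by Pecam1 and Kdr, in 4 of 4 measured (4.61 against 17.3). Adipocyte markers, of which Fabp4 and Cidec were measured, summed to 6.03 against 18.2 RPKM, both lower. Enterocyte markers, led by Anpep and Apoa4, were higher in 4 of 6 measured, though their sum was 124 against 127 RPKM, with Sis and Lct at 0 in both. Macrophages and hepatocytes are known for making Apoe. Macrophage markers, led by C1qb and Cd68, were higher in 5 of 7 measured (20.3 against 6.81 RPKM), with Adgre1, Mrc1, Fcgr1 and Cd163 at 0 in both libraries. Of the 5, 3 were listed at 0 in the control library. There C1qb and Cd68 were near the floor, at about 10.8 and 17.6 estimated reads. Lyz2 and Cd14 went the other way, at 0 against 1.35 and 3.03 RPKM. Hepatocyte markers, led by Apoa1 and Ttr, were lower in 3 of 5 measured, with Alb at 0 against 1.13 RPKM and Serpina1a at 0 against 2.15 RPKM. Their sum was higher (1601 against 1341 RPKM), but nearly all of it was Apoa1 (1576 against 1260 RPKM). Ttr was lower (ratio 0.171) and Apob higher (ratio 4.65). The part of these cells in the sterol differences was not tested. With Atp4a and Atp4b as the scale, 27 sterol genes were lower and 6 higher, beside 69.1% of all coding genes lower.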

How the data were processed

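Total RNA of sorted parietal cells was sequenced in 2 libraries, 1 per diet, with the Ion Total RNA-Seq kit per the labels' protocols. Build mm10 and bedtools 2.25.0 are named in the submitters' processing notes; for the aligner, counting rule and annotation release nothing was given in the sources used here. The values deposited by the authors, in a column headed RPKM, were read as log2 of RPKM with genes at or below 1 RPKM set to 0. The largest was 18.2. In single-exon genes the unlogged value times exon length came in even steps, with 49.7% and 36.5% within 0.01 of a step up to 12 steps. A fixed step would give 2% by chance, but the step used was the best fitting of many. Read as natural logs, with the step chosen in the same way, the shares were 3.85% and 4.87%. The step gave depths of 25.5 M and 9.84 M reads, so a gene of 2 kb at 1 RPKM rests on about 51.0 or 19.7 reads.

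Symbols, positions and exon lengths came from GENCODE M21 (GRCm38, the same assembly as mm10); 36308 identifiers matched and 1779 did not. Differences are log2(RPKM + 1) with a pseudocount of 1 RPKM, and understate the change of low genes. Ratios carry exact conditional binomial 95% intervals from reads estimated with those lengths; they are approximate, since the authors' lengths are unknown, and cover counting error only, as reads amplified by PCR need not stem from separate molecules. Calculations used Python 3.11.15 with scipy 1.17.1 and pandas 2.3.3 and were tested on simulated data. Without counts no count model could be used, and with 1 library per diet no p-value is given. Members and gene lists were chosen with earlier results of these data known. All members are named. Of each marker list the 2 most abundant are named, with others where genes were at 0 or the list differed in direction. Of each pathway list, the 3 most abundant genes are named. So are those whose ratio was highest or lowest among genes with 50 or more estimated reads in total. Of the pathway genes so chosen, 1 is not reported here. Faxdc2 and Dpcr1 of the lists matched no identifier. Motifs were searched in RefSeq promoters on GRCm38.p6. Alternatives were another pseudocount, other ways of entering a 0, other minimums and 4 rescalings.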

Additional observations from a re-analysis of the deposited data

How the results depend on the processing

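The sterol median of -0.41 stayed between -0.37 and -0.43 under the other pseudocount, the other ways of entering a 0, both other minimums and the scale by the median ratio of coding genes. It was -0.14 with the total of coding genes, -0.96 with a total leaving out the 20 most abundant genes and -0.67 with Atp4a and Atp4b as the scale. The number of genes over 2-fold lower, 5, was 3 with a 0 entered as 1 RPKM, 3 by plain ratio among genes listed in both libraries, 2 at a minimum of 5 RPKM and 15 with a total leaving out the 20 most abundant genes. The number over 2-fold higher, 0, was 2 with the total of coding genes. Called differences that changed sign were Scap (0.0374) and Sqle (0.0715) with the total of coding genes, Pmvk (-0.10), Mvd (-0.35), Nsdhl (-0.26), Stard4 (-0.17) and Soat1 (-0.45) with a total leaving out the 20 most abundant genes, and Mvd (-0.0505) and Soat1 (-0.16) with Atp4a and Atp4b. Under the total of coding genes, a total leaving out the 20 most abundant genes, and Atp4a and Atp4b, in that order, the list medians were 0.0733, -0.70 and -0.46 for SREBP processing, 0.12, -0.68 and -0.40 for isoprenoid branches, -0.11, -0.96 and -0.66 for electron donors, 0.61, -0.22 and 0.0645 for oxysterols and LXR, 0.35, -0.39 and -0.14 for sterol transfer, 0.33, -0.39 and -0.15 for other receptors, and -0.12, -0.996 and -0.69 for fatty acid targets. Each scale multiplies all HFD values by 1 factor, so genes listed at 0 in the HFD library do not move and, with the pseudocount, low genes move less than abundant ones. No paired analysis was possible because each diet had 1 library. Leaving out a library, count-based normalization and an outlier check could not be run for the same reason or for want of counts. Depth limits the genes near the floor: Mylip at 1.51 RPKM in the control library rested on about 48.1 estimated reads, and a 0 stands for any level up to 1 RPKM.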

Other observations

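Of the members, 4 listed in both libraries have a start within 1000 bases of that of another listed coding gene on the opposite strand, and in each pair the ratios of the neighbours were over 2-fold apart. Npc2 and Isca2, an iron-sulfur assembly gene whose start lies 99 bases away, had ratios of 0.510 and 1.86 (interval of Isca2 1.55 to 2.24). Dhcr7 and Nadsyn1, the gene of NAD synthetase, 296 bases apart, had ratios of 0.584 and 2.57 (2.254 to 2.95). Nsdhl and Cetn2, a centrin gene, 146 bases apart, had ratios of 1.24 and 0.463 (0.355 to 0.611). Mvk and Mmab, which acts in vitamin B12 metabolism and starts 209 bases away, were both lower, at 0.192 and 0.772 (0.668 to 0.893). Over 405 such pairs of coding genes listed in both libraries, 57.04% differed in the same direction and 29.4% were over 2-fold apart. The pairs were looked for after the values were seen, and with 4 pairs the difference from that share was not tested.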
